A study of Homo sapiens with 6 samples.

Results

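Histones are modified by enzymes that add methyl or acetyl groups to lysine and arginine residues and by enzymes that take them off, and the genes of these enzymes were followed here after depletion of the long non-coding RNA *SWINGN* (LINC00565). Members were chosen by name only, as all gene names of the count table that belong to the KDM, KMT2, MLL, SETD, EZH, EHMT, HDAC, SIRT, KAT and PRMT series, with *EED*, *SUZ12*, *EP300* and *CREBBP* added. No value enters the rule, which was drawn up with earlier results of these data known, and it found 70 of 17222 gene names. Of these, 69 had enough reads to be tested, among 14660 genes tested in all. The exception was *SIRT4*, a mitochondrial sirtuin, with 4, 5 and 15 reads in the control libraries and 8, 3 and 2 in the knockdown libraries. *KDM5D*, which lies on the Y chromosome, was tested and is counted below, but its level is not given.

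The libraries came from H226, an established human line of lung squamous carcinoma. Cells received ASO_LINC#3, 1 antisense oligonucleotide directed against *SWINGN*, or the control oligonucleotide ASO_CTRL by transfection, and RNA was sequenced 48 h later from 3 replicates per condition (named ASO_LINC and ASO_CTRL here). No second oligonucleotide against *SWINGN* was sequenced in these libraries, and *SWINGN* reads were not analysed here, so its depletion was not checked in them. The study compared the conditions to learn which genes depend on this RNA.

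The reads counted on genes ranged from 5738340 to 10546786 in the control libraries and from 3686828 to 6780016 in the knockdown libraries, with ASO_LINC replicate 3 the shallowest. The labels give H226 as the cells, while the sequencing methods speak of BJ fibroblasts, and the marker levels were as follows. Simple epithelial keratins were abundant, at a summed 11700 to 12640 CPM (reads on a gene scaled to the size of the library) in ASO_CTRL and 7103 to 12440 CPM in ASO_LINC. In that sum ASO_LINC replicates 1 and 2 lay below the controls and replicate 3, at 12440 CPM, among them. Of 10 squamous markers only *KRT5* (94.4 to 117 CPM in ASO_CTRL, 62.6 to 77.8 CPM in ASO_LINC) and *KRT6A* (at most 2.06 CPM) had values, and the others, *TP63* and *SOX2* included, were not analysed here. All 5 mesothelial markers had values, with sums of 778 to 973 CPM in ASO_CTRL and 253 to 371 CPM in ASO_LINC. *CALB2* (log2 fold change −1.97) and *LRRN4* (−1.59) were called lower. *UPK3B* (−0.92, edgeR adjusted p = 0.0104) was lower without overlap but just missed the 0.01 threshold, and *MSLN* (0.06) and *WT1* (−0.32) were not called. Of 5 fibroblast markers, *THY1* and *TWIST2* had values, summing to 109 to 126 CPM and 92.2 to 130 CPM. The 4 leukocyte markers were not analysed here. In bulk RNA, fewer cells of a type and less RNA per cell cannot be told apart, and the part of these shifts in the results below was not tested.

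Lysine demethylases of the JmjC family need oxygen, iron and 2-oxoglutarate to strip methyl groups from histone lysines, and KDM1 enzymes use flavin instead. Methyl groups are placed by SET-domain enzymes, among them the KMT2 and SETD1 proteins at promoters and enhancers and the Polycomb enzymes EZH1 and EZH2 at silenced genes, and by PRMT proteins on arginines. Lysine acetyltransferases such as p300, CBP and the KAT proteins mark active regulatory elements, and zinc-dependent HDACs and NAD-dependent sirtuins remove the acetyl groups.

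After knockdown, 4 of the 69 members tested passed both thresholds (adjusted p below 0.01, log2 fold change of more than 0.5 up or down) in edgeR's quasi-likelihood F-test. The demethylase genes *KDM3A* and *KDM5B* rose about 2.04-fold and 1.84-fold, and the deacetylase gene *HDAC8* and the SET-domain gene *SETD9* fell to 0.604 and 0.51 of their control levels, as fitted. These are 5.8% of the members, beside 7.54% of all genes tested. By direction the background was 4.91% of all genes called higher and 2.63% called lower. At an adjusted p below 0.05 with no bound on the fold change, 11 members (15.9%) passed, beside 18.0% of all genes. Both shares of the members were close to those of the whole table.

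The sizes of change were likewise close to or below those of all genes tested. A log2 fold change of more than 0.5 up or down was seen in 15 members (21.7%) against 30.3% of all genes tested, and one beyond 1 in 2 members (2.9%) against 8.23%. The median log2 fold change of the members was 0.02 and that of all genes −0.0027, and the medians of its absolute size were 0.28 and 0.31. For 26 members the ASO_LINC and ASO_CTRL libraries did not overlap in CPM (37.7%), with 16 higher and 10 lower in ASO_LINC, beside 36.1% of all genes (18.7% higher and 17.3% lower). By called genes, size of change and overlap, the members as a whole were at or below the background or close to it.

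**Figure D1:**
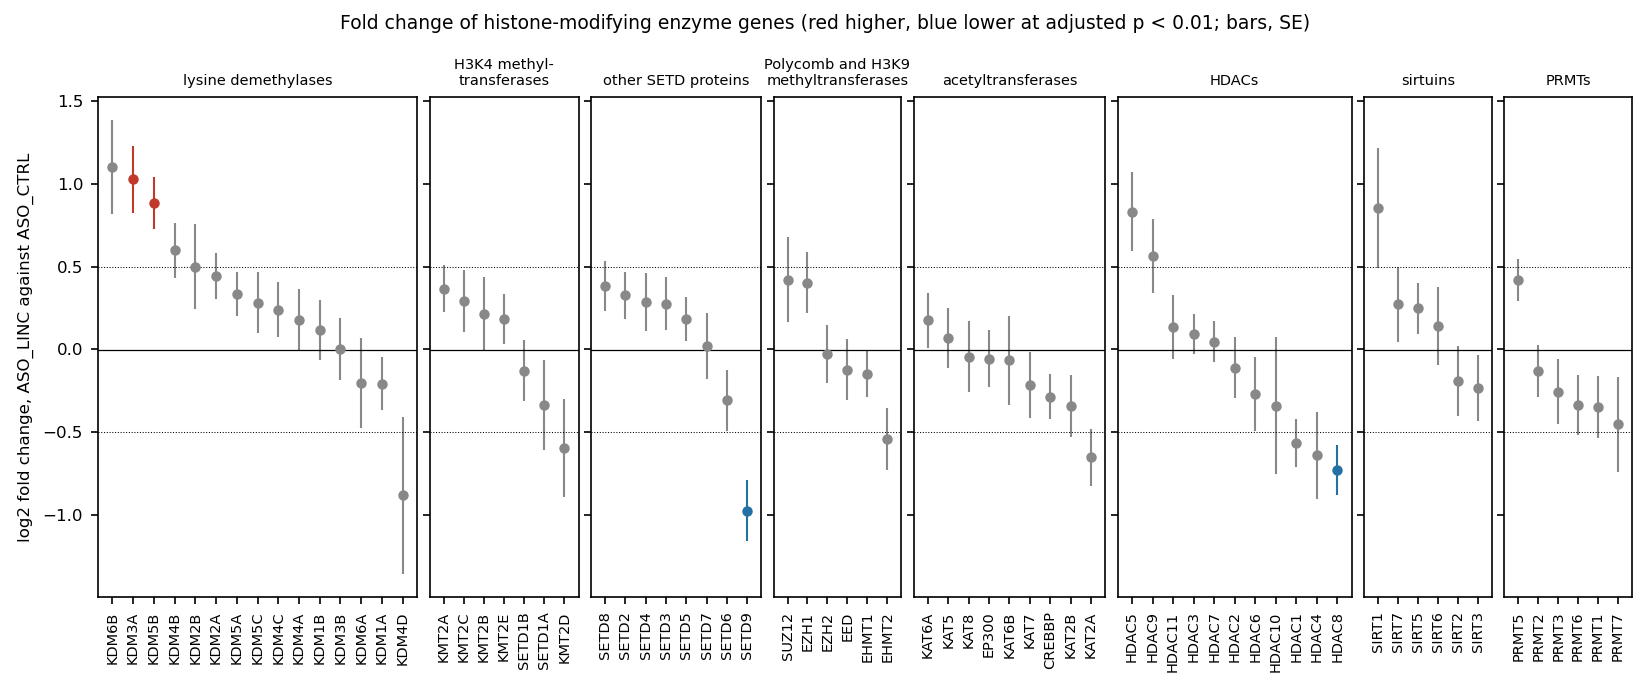
Log2 fold change (ASO_LINC against ASO_CTRL, 3 libraries each) of 68 of the 69 members tested, sorted within 8 classes of enzymes. Points are edgeR estimates and bars their SE. The solid line is the median of all genes tested (−0.0027) and the dotted lines mark 0.5 in either direction. Red points (*KDM3A*, *KDM5B*) were called higher and blue points (*SETD9*, *HDAC8*) lower. Most demethylases and most other SETD genes lie above the line.

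Demethylases had the most genes past a threshold, but they were also the largest class. Of 16 tested, 2 were called higher, beside 4.91% of all genes tested, and 0 lower, beside 2.63%. An adjusted p below 0.05 was found for 5, all of them higher, beside 18.0% of all genes in either direction. A log2 fold change above 0 was found for 12 (75%), beside 49.7% of all genes. The class median log2 fold change was 0.26. This direction was not particular to demethylases. Among 8 SETD genes outside the H3K4 methyltransferase class, 6 (75%) were above 0 as well, with a median of 0.23. For 7 demethylases every ASO_LINC library was above every ASO_CTRL library, beside 18.7% of all genes tested, and for 0 was every one below, beside 17.3%. The class medians of the single knockdown libraries, each as the change from the control mean, were 0.26, 0.36 and 0.22 on the log2 CPM scale, so the 3 libraries were alike in this. For all genes tested the same 3 medians were −0.0040, −0.0071 and 0.00077.

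*KDM3A* encodes a demethylase of mono- and dimethylated H3K9 and lies on chromosome 2 (GRCh37, 86667770 to 86719839, plus strand). It was at 8.62, 9.46 and 7.73 CPM in the ASO_CTRL replicates 1 to 3 and at 14.8, 21.4 and 16.0 CPM in the ASO_LINC replicates 1 to 3. All knockdown libraries were above all controls, with ASO_LINC replicate 2 the highest. The means were 8.60 ± 0.87 and 17.4 ± 3.50 CPM (SD, n = 3 each), with a log2 fold change of 1.03 (SE 0.20, edgeR adjusted p = 0.00649).

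*KDM5B*, a demethylase of di- and trimethylated H3K4 that lies on chromosome 1 (GRCh37, 202693623 to 202777615, minus strand), was called higher as well. Its CPM were 11.2, 12.9 and 12.97 in ASO_CTRL and 22.8, 23.1 and 22.5 in ASO_LINC. The 3 knockdown libraries were nearly level and all above the controls. The log2 fold change was 0.88 (SE 0.16, edgeR adjusted p = 0.00415).

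*KDM3A* had an adjusted p of up to 0.0451 and *KDM5B* of up to 0.0253 in edgeR when 1 library was left out, and each lost its call without any library other than ASO_LINC replicate 3. Without ASO_LINC replicate 3 they remained called, with log2 fold changes of 1.08 and 0.89. Across the 6 such fits the fold changes stayed between 0.85 and 1.14 for *KDM3A* and between 0.82 and 0.92 for *KDM5B* on the log2 scale.

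*KDM6B* encodes a demethylase of trimethylated H3K27 and had the largest log2 fold change of all members, 1.10 (SE 0.28), with an edgeR adjusted p of 0.0227 that missed the 0.01 threshold. It was at 5.25, 2.24 and 4.96 CPM in ASO_CTRL and at 9.11, 8.56 and 10.03 CPM in ASO_LINC. The groups did not overlap, but ASO_CTRL replicate 2, with 13 reads, was well below the other controls. Its close relative *KDM6A* (UTX), an X-linked demethylase of the same mark, was at 4.67 to 6.73 CPM and 3.25 to 6.03 CPM, which overlap, with a log2 fold change of −0.20 (edgeR adjusted p = 0.65).

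A further pair of demethylases had an adjusted p below 0.05. *KDM4B*, which acts on trimethylated H3K9, was at 22.5, 18.2 and 18.6 CPM in ASO_CTRL and at 29.1, 26.5 and 34.7 CPM in ASO_LINC (log2 fold change 0.60, SE 0.17, edgeR adjusted p = 0.0322). *KDM2A*, an H3K36 demethylase that binds CpG islands, was at 42.0, 39.8 and 48.4 CPM and at 57.0, 64.5 and 55.8 CPM (0.44 on the log2 scale, SE 0.14, edgeR adjusted p = 0.0494). Neither gene had overlapping groups. *KDM5A*, the most read demethylase and a relative of *KDM5B*, was at 48.0 to 56.8 CPM and 62.9 to 69.3 CPM, also without overlap, yet its difference of 0.33 did not pass (edgeR adjusted p = 0.104). Exons of *KDM5A* overlap those of *CCDC77* on the opposite strand.

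The remaining demethylases ranged from −0.88 for *KDM4D*, read 6 to 36 times per library, to 0.50 for *KDM2B*. *KDM3B*, the relative of *KDM3A*, was at 18.5 ± 3.48 and 18.4 ± 2.45 CPM (SD, n = 3 each), a difference of 0.0039 on the log2 scale.

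**Figure D2:**
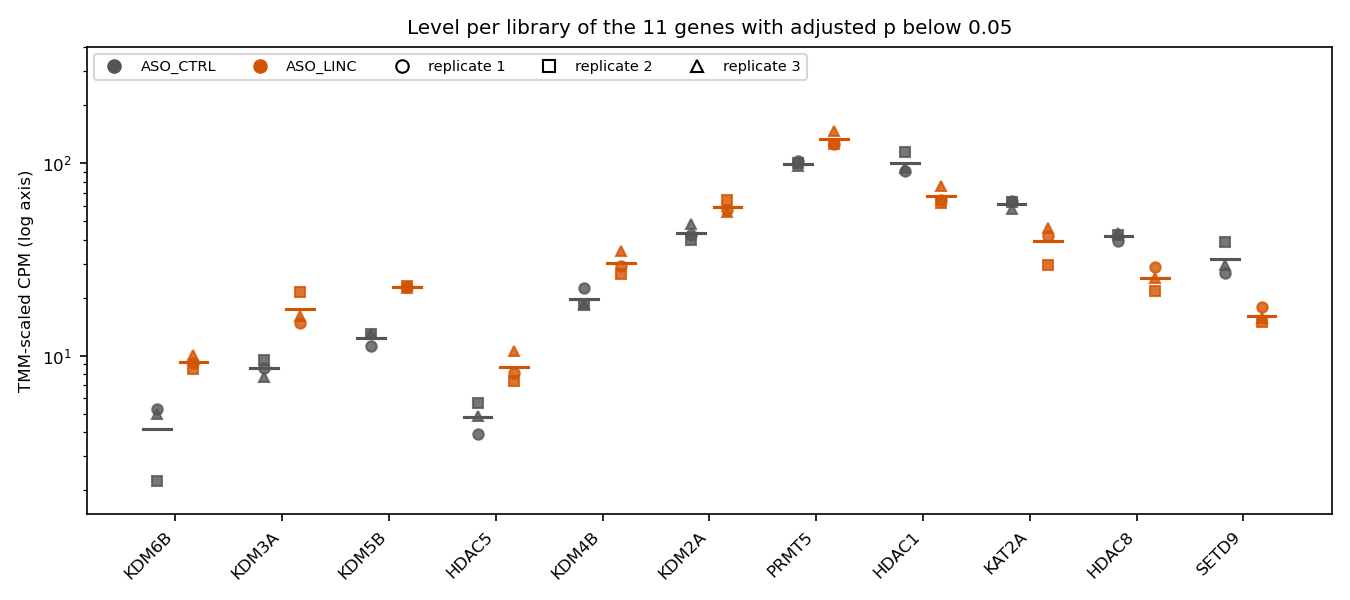
CPM scaled by TMM (log axis) of the 11 members with an adjusted p below 0.05, in each of the 3 ASO_CTRL (grey) and 3 ASO_LINC (orange) libraries, with symbols for the replicate number and bars for the group means. The groups do not overlap for any of the 11 genes, and *KDM6B* shows 1 low control, replicate 2.

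A list of 7 demethylase genes that respond to low oxygen in other cells was read separately (*KDM2B*, *KDM3A*, *KDM4B*, *KDM4C*, *KDM5B*, *KDM5C* and *KDM6B*). The list was drawn up with earlier results of these data known, so its common direction is a description and no independent evidence. All 7 had a log2 fold change above 0, from 0.24 to 1.10 with a median of 0.60, where 49.7% of all genes tested were above 0. *KDM3A* and *KDM5B* were called higher (4.91% of all genes), 4 had an adjusted p below 0.05 (18.0% of all genes), and for 5 the groups did not overlap, all of them higher (18.7% of all genes). The other 2, *KDM2B* and *KDM5C*, overlapped, and *KDM2B* was above all controls in ASO_LINC replicates 1 and 2 and below them in replicate 3.

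Hypoxia-inducible factors bind promoters and enhancers at a short core, ACGTG or GCGTG, on either strand. The promoters of the 4 genes of this list with an adjusted p below 0.05 are shown so that this core can be looked for; they come from RefSeq, each is read along its gene's strand, and capitals mark ACGTG or GCGTG found on either strand. Only bases outside annotated exons are printed, at their GRCh37 positions. *KDM3A* is shown at chr2:86668244-86668394 (plus strand), *KDM5B* at chr1:202777616-202777799 (minus strand), *KDM4B* at chr19:4968874-4969123 (plus strand) and *KDM6B* at chr17:7737285-7737534 (plus strand).
KDM3A: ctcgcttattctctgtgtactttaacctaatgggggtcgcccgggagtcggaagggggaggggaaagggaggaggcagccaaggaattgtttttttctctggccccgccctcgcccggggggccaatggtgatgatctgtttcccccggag
KDM5B: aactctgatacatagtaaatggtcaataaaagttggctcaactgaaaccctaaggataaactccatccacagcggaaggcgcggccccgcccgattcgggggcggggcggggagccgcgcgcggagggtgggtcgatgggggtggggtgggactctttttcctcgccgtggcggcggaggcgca
KDM4B: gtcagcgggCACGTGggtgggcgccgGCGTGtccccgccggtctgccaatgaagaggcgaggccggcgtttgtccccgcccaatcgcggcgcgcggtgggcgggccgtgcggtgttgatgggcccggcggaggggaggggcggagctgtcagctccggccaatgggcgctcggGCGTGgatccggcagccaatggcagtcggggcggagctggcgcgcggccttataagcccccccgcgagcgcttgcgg
KDM6B: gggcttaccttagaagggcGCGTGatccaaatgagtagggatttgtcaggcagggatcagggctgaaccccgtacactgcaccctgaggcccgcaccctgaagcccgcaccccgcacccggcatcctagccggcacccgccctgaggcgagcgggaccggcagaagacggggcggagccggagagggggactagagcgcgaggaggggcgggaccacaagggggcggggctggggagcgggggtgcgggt

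The *KDM4B* window of 250 bases held 4 matches, since its CACGTG is read on both strands, and the *KDM6B* window held 1. For *KDM3A* and *KDM5B* the 250 bases before the RefSeq start held 1 match each, both in the exonic bases that are not printed. Of the other genes of the list, *KDM4C* had 5 matches in the same window, and *KDM2B* and *KDM5C* had 0. *HDAC8* and *SETD9*, called lower, also had 0. Only the first RefSeq promoter listed for each gene was counted, and it need not be the main one. The *KDM4C* window (chr9:6757723-6757972) lay inside the annotated gene, which starts at 6720863. The windows of *KDM3A*, *HDAC8* and *SETD9* also lay inside their annotated genes. The core occurred in 43.2% of 35116 RefSeq promoters and in 41 of 64 member promoters searched (64.1%). The SP1 box GGGCGG was similarly frequent, in 42.6% of all promoters and 64.1% of the members' promoters, and the AP-1 site TGACTCA occurred in 4.2% and 3.12%. A match in such a window is not a bound site.

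Zinc-dependent deacetylases showed differences in both directions. Of 11 tested, 0 were called higher and 1 lower, beside 4.91% and 2.63% of all genes tested. An adjusted p below 0.05 was found for 3, beside 18.0% of all genes. The median log2 fold change was −0.34 for the 4 class I genes, which act mainly in nuclear corepressor complexes, 0.31 for the 4 class IIa genes, which shuttle between nucleus and cytoplasm, and −0.27 for the 3 genes of classes IIb and IV.

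*HDAC8*, a class I deacetylase known for acting on cohesin, lies on the X chromosome (GRCh37, 71549366 to 71792951, minus strand). It fell from 39.5, 42.5 and 43.4 CPM in ASO_CTRL to 28.7, 21.7 and 25.2 CPM in ASO_LINC. Every knockdown library was below every control, with ASO_LINC replicate 2 the lowest. The log2 fold change was −0.73 (SE 0.15, edgeR adjusted p = 0.00862), and in fits with 1 library left out it ranged from −0.84 to −0.63. The adjusted p in edgeR reached 0.0493 in these fits, and the call was lost without any library other than ASO_LINC replicate 3, and also with no filter on low counts.

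*HDAC1*, the core deacetylase of the SIN3, NuRD and CoREST complexes, was the fourth most abundant member per length of transcript. Its CPM were 90.8, 114 and 94.3 in ASO_CTRL and 63.9, 61.9 and 76.2 in ASO_LINC. The groups did not overlap and replicate 3 was the knockdown library closest to the controls. The log2 fold change was −0.57 (SE 0.15, edgeR adjusted p = 0.0225), and without ASO_LINC replicate 3 it passed the thresholds at −0.66 (edgeR adjusted p = 0.00231). *HDAC1* did not pass without any other single library (edgeR adjusted p from 0.0467 to 0.098). Its partner *HDAC2* was at 64.2 to 91.4 CPM and 54.2 to 78.2 CPM, overlapping, with a log2 fold change of −0.11, and *HDAC3*, the most read deacetylase, was at 112 to 126 CPM and 122 to 133 CPM (0.09).

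Among class IIa, *HDAC5* was at 3.91, 5.68 and 4.87 CPM in ASO_CTRL and at 8.08, 7.36 and 10.6 CPM in ASO_LINC, without overlap (log2 fold change 0.83, SE 0.24, edgeR adjusted p = 0.0354). Exons of *HDAC5* overlap those of *G6PC3* on the opposite strand, and the strand setting of the counting is not given in the sources used here, so reads of these genes may not be separated. *HDAC4* went the other way in value, at 4.04, 5.68 and 5.34 CPM against 2.94, 3.08 and 3.80 CPM (−0.64, edgeR adjusted p = 0.114). *HDAC7*, the most read class IIa gene, was at 82.1 to 92.3 CPM and 84.5 to 94.6 CPM.

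Sirtuins gave no call among 6 tested, beside 7.54% of all genes tested, and none with an adjusted p below 0.05, beside 18.0%. Their median log2 fold change was 0.19. *SIRT1*, a nuclear deacetylase, had the largest value, 0.85 (SE 0.36, edgeR adjusted p = 0.131), at 0.94, 2.41 and 2.003 CPM against 3.23, 3.77 and 2.44 CPM. It was read only 7 to 22 times per library. *SIRT2*, a mostly cytoplasmic deacetylase and the second most abundant member per length, was at 117, 114 and 118 CPM in ASO_CTRL but at 89.4, 74.3 and 144 CPM in ASO_LINC. Thus ASO_LINC replicates 1 and 2 were below the controls and replicate 3 was above them. Exons of *SIRT2* overlap those of *NFKBIB* on the opposite strand.

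Lysine acetyltransferases gave 0 calls among 9 tested, beside 7.54% of all genes tested. Of the 9, 7 had a log2 fold change at or below 0 (median −0.07), where 49.7% of all genes were above 0. *KAT2A* (GCN5), the acetyltransferase of SAGA and ATAC, was at 63.4, 62.8 and 57.5 CPM in ASO_CTRL and at 41.9, 29.4 and 46.1 CPM in ASO_LINC. The groups did not overlap, with replicate 2 the lowest, and the log2 fold change was −0.65 (SE 0.17, edgeR adjusted p = 0.0247). It passed the thresholds without ASO_LINC replicate 3 (−0.77, edgeR adjusted p = 0.00252). *KAT2A* did not pass without any other single library (edgeR adjusted p from 0.064 to 0.0918). Its relative *KAT2B* (PCAF) was at 20.1 to 28.2 CPM and 16.5 to 22.1 CPM (−0.34, edgeR adjusted p = 0.241). *CREBBP* was without overlap, at 38.2 to 41.8 CPM against 30.9 to 35.7 CPM (−0.29, edgeR adjusted p = 0.173), and *EP300*, which encodes p300, was at 19.96 to 26.8 CPM and 21.1 to 26.5 CPM (−0.05).

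The H3K4 methyltransferase class was grouped by gene name (*KMT2A* to *KMT2E*, *SETD1A* and *SETD1B*), and the activity of each protein was not checked. It gave 0 calls among 7 tested, beside 7.54% of all genes tested. An adjusted p below 0.05 was found for 0, beside 18.0% of all genes. *KMT2A*, known from rearrangements in leukemia, was at 40.4, 53.2 and 50.1 CPM in ASO_CTRL and at 60.4, 61.8 and 62.9 CPM in ASO_LINC, without overlap (log2 fold change 0.37, edgeR adjusted p = 0.101). *KMT2D*, an enhancer methyltransferase and the least abundant member per length, was at 2.83, 2.92 and 2.38 CPM against 1.91, 1.71 and 1.63 CPM (−0.59, edgeR adjusted p = 0.196), with 6 to 25 reads per library. The groups of *KMT2D* did not overlap, but its reads are few. Its partner in function, *KMT2C*, was above all controls in ASO_LINC replicates 1 and 2 (24.8 and 28.8 CPM) and below them in replicate 3 (17.9 CPM), with a log2 fold change of 0.29. The other members of the class lay between −0.34 and 0.22.

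Among the 8 other SETD genes tested, 1 was called lower, beside 2.63% of all genes tested, and 0 higher, beside 4.91%. The gene called was *SETD9*, whose protein is little described. It lies on chromosome 5 (GRCh37, 56205087 to 56221359, plus strand) and was at 26.9, 39.1 and 29.7 CPM in ASO_CTRL and at 17.8, 14.9 and 15.7 CPM in ASO_LINC. All knockdown libraries were below all controls, and ASO_CTRL replicate 2 was the highest. The means were 31.9 ± 6.36 and 16.1 ± 1.49 CPM (SD, n = 3 each), with a log2 fold change of −0.97 (SE 0.18, edgeR adjusted p = 0.00536). The adjusted p in edgeR rose to at most 0.0245 with 1 library left out. It remained called without ASO_CTRL replicate 1 or ASO_LINC replicate 3 and not without any of the others. The rest of this class lay between −0.31 and 0.38. *SETD2*, which trimethylates H3K36, and *SETD8*, which monomethylates H4K20, were higher without overlap (0.33 and 0.38, edgeR adjusted p = 0.135 and 0.107), and *SETD5*, the most read of the class, was at 76.4 to 83.6 CPM and 82.9 to 102 CPM (0.18).

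The Polycomb and H3K9 methyltransferase genes gave 0 calls among 6, beside 7.54% of all genes tested. *EZH2*, the main catalytic subunit of PRC2 in dividing cells, was at 41.6, 34.6 and 45.8 CPM in ASO_CTRL and at 47.0, 40.2 and 32.0 CPM in ASO_LINC, overlapping (log2 fold change −0.03). *EZH1*, its relative, was at 10.4 to 11.2 CPM and 12.05 to 15.9 CPM, without overlap (0.40, edgeR adjusted p = 0.153). The PRC2 subunit genes *EED* and *SUZ12* had values of −0.12 and 0.42, both with overlap. *EHMT2* (G9a), which places mono- and dimethyl marks on H3K9, was at 30.0, 31.7 and 24.4 CPM against 19.7, 15.7 and 24.1 CPM (−0.54, edgeR adjusted p = 0.0726). It passed without ASO_LINC replicate 3, its highest knockdown library, at −0.68 (edgeR adjusted p = 0.00954). *EHMT2* did not pass without any other single library (edgeR adjusted p from 0.0971 to 0.256). Its partner *EHMT1* had a value of −0.15.

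Arginine methyltransferase genes gave 0 calls among 6, beside 7.54% of all genes tested. Of the 6, 5 had a log2 fold change at or below 0 (median −0.30), where 49.7% of all genes were above 0. The class medians of ASO_LINC replicates 1 to 3, as changes from the control mean, were −0.33, −0.18 and 0.11. Replicate 3 thus went the other way. The gene above 0 in the fit was *PRMT5*, the main enzyme of symmetric arginine dimethylation. It was at 102, 99.6 and 96.2 CPM in ASO_CTRL and at 126, 126 and 146 CPM in ASO_LINC, without overlap (0.42, SE 0.12, edgeR adjusted p = 0.0409). *PRMT7*, a monomethyltransferase, was at 19.0, 18.6 and 20.7 CPM in ASO_CTRL and at 10.1, 10.6 and 23.6 CPM in ASO_LINC. Replicates 1 and 2 were near 10 CPM and replicate 3 was above all controls, and the log2 fold change of −0.45 had an edgeR adjusted p of 0.307. Exons of *PRMT7* overlap those of *SMPD3* on the opposite strand.

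ASO_LINC replicate 3 parted from replicates 1 and 2 in other members as well. Its change from the control mean had the opposite sign to both others in 16 of 69 members (23.2%), beside 27% of all genes tested. In 9 members (13%, beside 10.7% of all genes) replicates 1 and 2 were beyond all controls on one side and replicate 3 beyond all of them on the other. *PRMT7*, *SIRT2*, *SIRT3*, *PRMT2* and *SETD1A* were lower in replicates 1 and 2, and *KMT2C*, *KDM2B* and *KAT6A* higher. Without replicate 3, 10 members were called (14.5%), beside 17.2% of all genes tested in that fit. *KDM3A* and *KDM5B* were again the only ones higher, and 8 were lower, namely *SETD9* (−0.95), *PRMT7* (−0.91), *KAT2A* (−0.77), *HDAC8* (−0.72), *EHMT2* (−0.68), *HDAC1* (−0.66), *PRMT1* (−0.60) and *SIRT2* (−0.51). That library was also the one with the fewest reads and with keratin sums at the control level, and the part of either in these values was not tested.

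**Figure D3:**
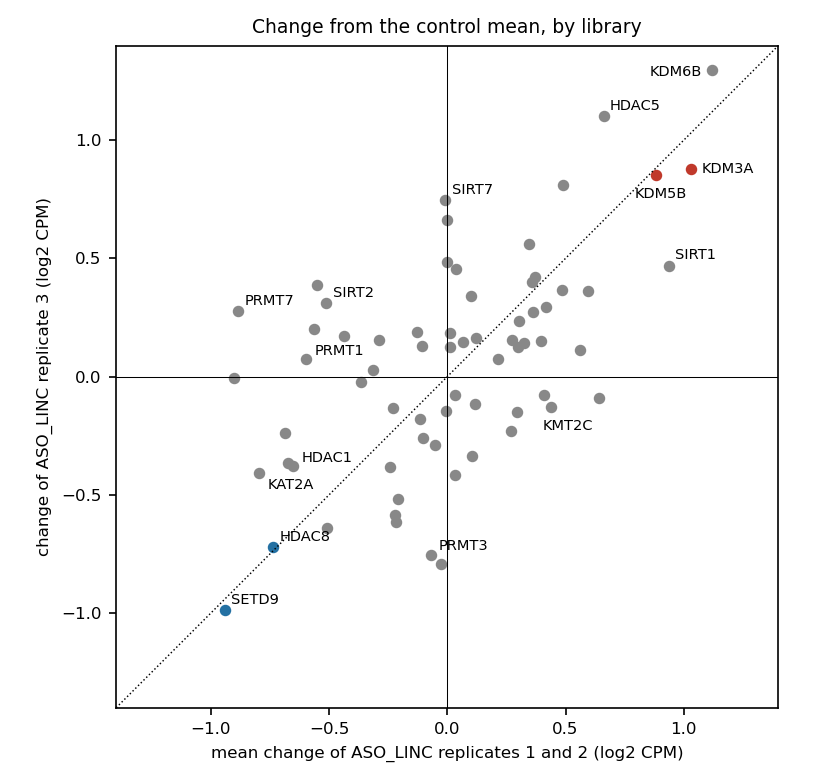
Change from the mean of the controls on the log2 CPM scale of 68 members, with the mean of ASO_LINC replicates 1 and 2 on the x axis and ASO_LINC replicate 3 on the y axis. The dotted line marks equal change. The genes called higher (red) and lower (blue) lie near it, whereas *PRMT7* and *SIRT2* lie in the upper left, lower in replicates 1 and 2 and higher in replicate 3.

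The balance between related enzymes was compared in 12 pairs, as the log2 ratio of the pair's CPM in each library. For 5 pairs the ratios of the conditions did not overlap. How often ratios of other gene pairs do so was not tested, and among single genes 36.1% of all tested did not overlap. The *KDM3A* to *KDM3B* ratio was higher in ASO_LINC by 0.98 on the log2 scale, *KDM6B* to *KDM6A* by 1.46, *HDAC5* to *HDAC4* by 1.38, *KMT2C* to *KMT2D* by 0.80 and *EP300* to *CREBBP* by 0.24. In the *HDAC5* to *HDAC4* pair the 3 control libraries were at −0.05, 0 and −0.13 and the 3 knockdown libraries at 1.37, 1.18 and 1.41, with little spread within either condition. Both genes have few reads, 29 to 55 per library for *HDAC5* and 14 to 56 for *HDAC4*, so this small spread is no measure of precision. Reads of *HDAC5* may also not be separated from those of *G6PC3*. With 3 against 3 libraries a two-sided exact permutation test cannot give a p below 0.1, which each of these 5 pairs reached, and adjusted over the 12 pairs it was 0.24. None of the ratios is thus past a threshold. The other 7 pairs overlapped, among them *HDAC1* to *HDAC2* (lower by 0.44) and *EZH1* to *EZH2* (higher by 0.43), with exact permutation p = 0.2 each.

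**Figure D4:**
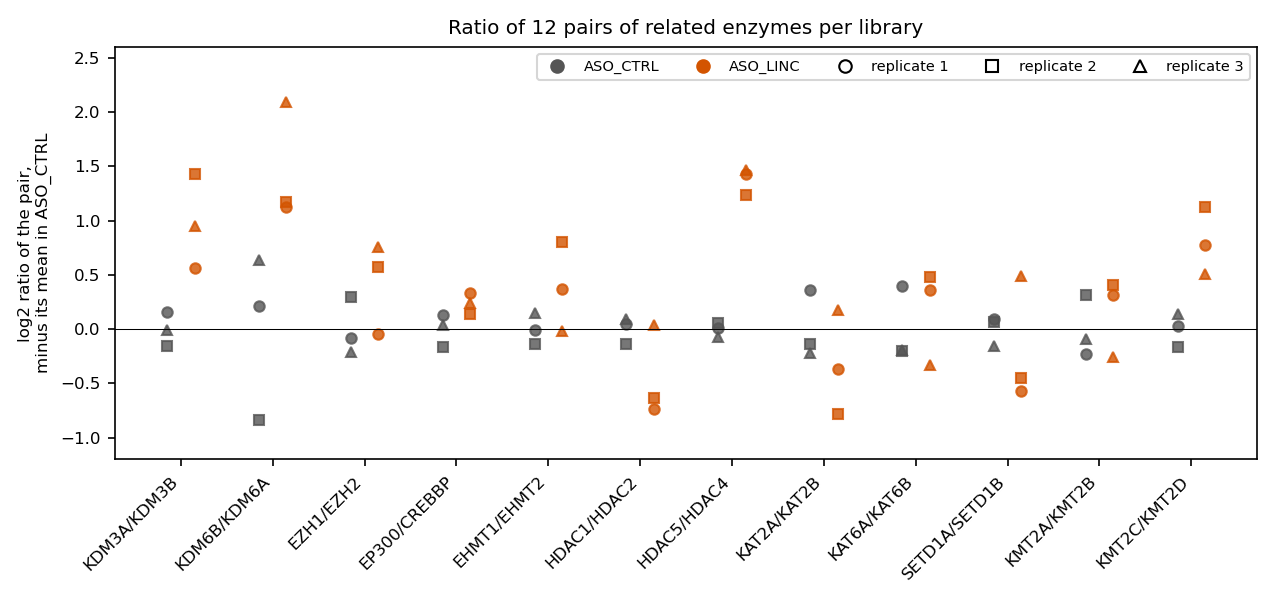
Log2 ratio of the CPM of 12 pairs of related enzymes in each library, minus the mean of that ratio in ASO_CTRL, for ASO_CTRL (grey) and ASO_LINC (orange) with symbols for the replicate number. The *HDAC5*/*HDAC4* ratios of the conditions lie well apart with little spread within each, although both genes have few reads. *KDM6B*/*KDM6A* spreads widely in both conditions.

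Compared per kilobase of transcript in the control libraries, 67 members could be put in order. The most abundant were *PRMT1* (67.0 CPM per kb), *SIRT2* (62.4), *HDAC3* (62.1), *HDAC1* (47.0) and *PRMT5* (43.1), and the least abundant *SIRT1* (0.43) and *KMT2D* (0.13). The genes called lower, *HDAC8* and *SETD9*, stood at ranks 8 and 9 and went from 23.8 to 14.4 and from 22.8 to 11.6 CPM per kb. The genes called higher were far down, *KDM3A* at rank 51 (1.84 to 3.73 CPM per kb) and *KDM5B* at rank 54 (1.33 to 2.45), and *KDM6B* stood at rank 63. *HDAC8* and *SETD9*, and likewise *SIRT2* and *HDAC3*, are neighbours in this order whose levels differ by less than the spread of the control libraries.

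Partners and relatives of these enzymes were read from the same fit. In it 4.91% of all genes tested were called higher and 2.63% lower, and the few calls below stand beside these shares. Of 28 related enzymes outside the name series, 1 was called higher and 0 lower. This was *JMJD6*, a JmjC-domain hydroxylase, at 27.2, 29.1 and 26.3 CPM in ASO_CTRL and at 44.2, 45.5 and 51.8 CPM in ASO_LINC (0.77, SE 0.14, edgeR adjusted p = 0.00408). Of 27 partners in deacetylase corepressor complexes, 2 were called higher and 0 lower, both of them subunits of the SIN3 deacetylase complex. *ING2*, which reads methylated H3K4, was at 13.2, 13.1 and 14.4 CPM and at 34.2, 30.1 and 30.4 CPM (1.22, SE 0.15, edgeR adjusted p = 0.000527), and *SAP30* was at 22.5, 25.8 and 27.2 CPM and at 44.2, 48.9 and 37.4 CPM (0.79, SE 0.16, edgeR adjusted p = 0.00637). For each of these 3 genes all knockdown libraries were above all controls.

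Of 34 acetyltransferase complex partners, *YEATS2*, a subunit of ATAC, was the 1 called higher, at 31.4, 25.3 and 37.1 CPM against 67.8, 66.9 and 50.4 CPM (0.98, SE 0.18, edgeR adjusted p = 0.00447), and 0 were called lower. The COMPASS and KMT2 partners (12 tested, median −0.18), the Polycomb partners (25 tested, median 0.03) and the acetyl-lysine readers (9 tested, median 0.30) gave 0 calls in edgeR, with 1, 3 and 0 genes at an adjusted p below 0.05. The shares of all genes tested were 4.91% called higher, 2.63% called lower and 18.0% with an adjusted p below 0.05.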

How the data were processed

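Per the labels the RNA came from H226 cells, while the sequencing methods name BJ cells. It was sequenced as single reads per the methods, and the authors mapped the reads with STAR (hg19). The values they deposited are raw counts for each gene name, not normalized or pooled. The tool, annotation and strand setting of the counting are not given in the sources used here. Totals of reads assigned to no gene (24.8% to 28.1% of each library) were left out.

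ASO_LINC and ASO_CTRL (3 libraries each, grouped by sample title) were compared by edgeR 4.0.16 under R 4.3.3, the tool and thresholds of the study's methods, using filterByExpr, TMM, the quasi-likelihood F-test and Benjamini-Hochberg adjustment over all 14660 genes tested. Called genes had an adjusted p below 0.01 and a log2 fold change of more than 0.5 up or down. The biological coefficient of variation was 0.159. CPM are TMM-scaled, and the change in 1 library was taken from log2 CPM (prior count 2). Since the labels do not say that replicates are separate cultures, p-values measure only the spread between these samples. Replicates differed by more than sampling noise (chi-square per degree of freedom of at least 2.5), so each counted once. The test was tried on simulated data.

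Members, classes and gene lists were chosen with earlier results of these data known. Genes named are all called, those with an adjusted p below 0.05, per class the largest change and the highest count, relatives of close pairs, members failing the filter, and called genes of the further lists. Other members were named after their values were seen, as examples without overlap, as range ends or for ASO_LINC replicate 3. Alternatives were DESeq2 1.42.0, limma 3.58.1 (voom), other scalings, other filters on low counts, a wider threshold, the replicate number as a block and leaving out each library. Loci and transcript lengths came from GENCODE lifted to GRCh37 (69 of 70 members matched, *SETD8* did not), and promoters from RefSeq (GRCh38.p14), located on GRCh37 by sequence. Exons of 15 members overlap those of another counted gene. Besides *HDAC5*, *SIRT2* and *PRMT7*, these include *KDM5A*, *KDM2B*, *KMT2C*, *HDAC7* and *SIRT3*, each with a gene on the opposite strand.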

Additional observations from a re-analysis of the deposited data

How the results depend on the processing

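The 4 calls (2 higher, 2 lower) came out as the same genes with limma-voom, with DESeq2 size factors or library size alone in edgeR and with at least 10 counts in every library, and DESeq2 added *KDM6B* higher and *KAT2A* lower. With no filter on low counts 1 gene was called lower (*SETD9*), and at an adjusted p below 0.05 there were 5 higher and 4 lower. Leaving out each library in turn gave 0 to 2 genes higher and 0 to 8 lower. These fits compare 2 with 3 libraries and called 2.42% to 3.5% of all genes, except 17.2% without ASO_LINC replicate 3. With the replicate number as a block, 0 members were called higher and 0 lower, beside 656 of all genes. Libraries that share a number did not deviate together (correlations from −0.18 to 0.059), so the numbers are not treated as a pairing.

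Under all these alternatives the direction held for every gene named by the rule except *KDM3B*, *EZH2*, *HDAC2*, *KMT2B* and *SIRT2*, none of them called with all 6 libraries. *KDM3B* was at −0.0029 with at least 10 counts in every library and at −0.00070 with the block. Leaving out 1 library gave log2 fold changes of −0.12 to 0.17 for *KDM3B*, −0.17 to 0.095 for *EZH2*, −0.23 to 0.078 for *HDAC2*, −0.019 to 0.34 for *KMT2B* and −0.51 to 0.0012 for *SIRT2*. The causes were not tested. Depth limits *SIRT1*, *KMT2D*, *KDM4D* and *SIRT4* most.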
